A study of Mus musculus with 12 samples.

Results

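Tmem176a and Tmem176b are a pair of neighbouring genes that encode related membrane proteins, and they are 2 of the 36222 genes measured in this RNA-seq experiment on mouse regulatory T cells (Treg). They were chosen from measured values, namely their higher RNA level in Ikaros-deficient Treg taken directly ex vivo, and each symbol belonged to 1 gene identifier (ENSMUSG00000023367 for Tmem176a and ENSMUSG00000029810 for Tmem176b). Treg came from spleens of mice that all carried Foxp3-IRES-YFP-Cre, an allele that makes Cre recombinase and a yellow reporter in Foxp3-expressing cells. The WT mice had intact Ikzf1, the gene for the transcription factor Ikaros, and the conditional knockout (cKO) mice were homozygous for the floxed allele Ikzf1-fl/fl, so that deletion was driven only in cells that express Foxp3. The ex vivo comparison was of mice aged 6 to 8 weeks on a B6 background. YFP+ cells sorted from CD4+ T cells were lysed without culture (ex vivo) or after 4 h on plate-bound antibodies to CD3 and CD28 at 1 ug/ml each (stimulated). There were 3 libraries in each of the 4 groups of genotype and treatment, 12 in all, and the labels state that replicates came from individual mice.

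TMEM176A and TMEM176B are small proteins with several transmembrane segments, related to the MS4A family that includes CD20, and they reside largely in intracellular vesicles. They are best known from dendritic cells and other myeloid cells, and from lymphocytes of the type 17 programme. TMEM176B has been described as a cation channel that restrains the inflammasome, the complex that activates caspase-1.

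In the NCBIM37 (mm9) annotation the genes lie head to head on chromosome 6. Tmem176b spans 48783810 to 48791373 on the minus strand with 4 annotated transcripts, and Tmem176a spans 48791482 to 48795363 on the plus strand with 2. All are protein-coding, and neither gene overlaps another in this annotation. The outermost starts are 108 bases apart, while the other annotated transcripts of both genes start farther inside. A single stretch of DNA thus lies upstream of both outermost starts. It is shown because it is the shortest shared upstream sequence of members that move together. It is written on the plus strand at chr6:48791374-48791481, with the letters of the searched motifs in capitals:

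Tmem176b-Tmem176a shared upstream stretch: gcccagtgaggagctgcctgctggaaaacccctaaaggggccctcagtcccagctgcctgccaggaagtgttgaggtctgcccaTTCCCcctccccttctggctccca

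The stretch is 63.9% G and C, against a median of 54.6% in the 108 bases upstream of 32851 RefSeq starts (GRCm38.p6), and it holds 0 CG dinucleotides. It was identical to the upstream stretch of 1 of the 2 starts that RefSeq gives Tmem176a, and the starts that RefSeq gives Tmem176b were not compared. Both strands were searched for GGGAA, the core of the Ikaros site, and for GGTCA, the repeat unit of nuclear receptor sites. GGGAA occurred 1 time, as TTCCC from base 85, and 29.5% of the RefSeq upstream stretches of this length hold it on either strand. GGTCA was not in this window, and 17.3% of the RefSeq stretches hold it. AGGAA, the form of the Ikaros motif at which the paper shows its Ikaros signal, was not searched. The stretch holds it in lower case, and no background share is given for it. These matches describe letters and not binding.

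Between 8208659 and 20247649 reads per library fell on genes, the fewest in cKO stimulated replicate 3. One repeat-derived gene model, Gm10800, took 17.7% to 55.9% of the summed TPM (transcript abundance per length and library) of a library, the highest share again in cKO stimulated replicate 3, so levels were also compared after scaling. Ikzf1, the targeted gene, was 125, 83.8 and 106 TPM in WT ex vivo and 44.3, 38.8 and 42.6 TPM in cKO ex vivo. After stimulation it was 74.6, 66.4 and 83.4 TPM in WT and 31.6, 26.9 and 17.04 TPM in cKO. All 6 cKO libraries were below all 6 WT libraries, and the genotype difference after stimulation was −1.29 on the log2 scale (SE 0.11, limma adjusted p 0.000161). The 6 Treg markers were present in every library, for example Foxp3 at 82.7 to 253 TPM and Cd3e at 214 to 688 TPM. WT ex vivo replicate 3 stood apart in 2 sex-linked genes, with Xist at 179 TPM (at most 1.36 TPM in the other libraries) and Ddx3y at 0.0970 TPM, and the ex vivo values of the pair are also given without it and the ex vivo calls that ended without it are named. In bulk RNA of sorted cells, a change in the share of cells with a transcript and a change in its level per cell cannot be told apart.

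Tmem176a was low in WT Treg and high in cKO Treg ex vivo. It was 3.15, 2.43 and 3.15 TPM in the 3 WT ex vivo libraries, from 25 to 47 reads. It was 21.6, 19.4 and 22.8 TPM in the 3 cKO ex vivo libraries, from 179 to 314 reads. Every cKO library was above every WT library by a wide margin, and these are the values from which the genes were chosen, so no test is given. The means were 2.91 ± 0.414 (SD, n = 3) and 21.3 ± 1.74 TPM (SD, n = 3), a 7.30-fold ratio of TPM. On the log2 scale of scaled TPM with 1 TPM added, on which all log2 differences below are given and which understates ratios of low genes, the difference was 2.30 (SE 0.21).

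Tmem176b behaved alike ex vivo. It was 4.41, 3.48 and 5.003 TPM in WT, from 68 to 142 reads. It was 21.1, 24.4 and 22.7 TPM in cKO, from 430 to 582 reads. Again the groups were far apart, with means of 4.30 ± 0.769 (SD, n = 3) and 22.7 ± 1.69 TPM (SD, n = 3), a 5.29-fold ratio. The log2 difference was 1.96 (SE 0.11). Without WT ex vivo replicate 3 the differences were 2.35 for Tmem176a and 2.05 for Tmem176b. Both members had non-overlapping groups in the contrast that chose them, where 3.62% of the 13318 genes tested were called higher in cKO, and nothing is read from that count. In deposited TPM, the groups did not overlap with cKO higher for 21.4% of the genes tested ex vivo and for 3.68% after stimulation, and with cKO lower for 1.47% and 27.1%.

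**Figure D1:**
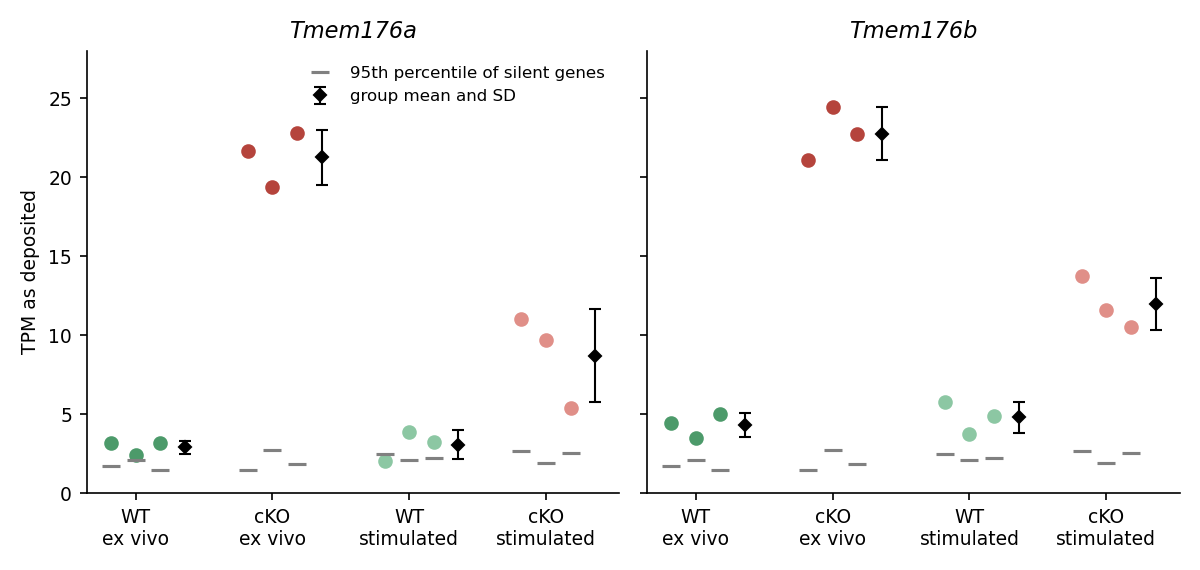
TPM of Tmem176a (left) and Tmem176b (right) in each of the 12 libraries, in 3 per group. Circles are libraries, diamonds with bars are group means with SD, and grey dashes mark the 95th percentile of the silent genes in the same library. Both genes sit below 6 TPM in all 6 WT libraries and are highest in cKO ex vivo, and cKO stimulated lies between.

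The pair was put forward from the ex vivo contrast, and the members were tested for the effect of genotype in the stimulated libraries, whose values were also known when it was put forward. Tmem176a was 2.06, 3.85 and 3.25 TPM in WT stimulated (16 to 43 reads) and 11, 9.69 and 5.38 TPM in cKO stimulated (43 to 90 reads). The groups did not overlap, although cKO replicate 3, the library with the fewest reads, was closer to WT than the other cKO libraries. The means were 3.06 ± 0.912 and 8.69 ± 2.94 TPM (SD, n = 3 each), a 2.84-fold ratio. Tmem176a was higher in cKO by 1.47 on the log2 scale (SE 0.21, limma with Benjamini-Hochberg adjustment over 13318 genes, adjusted p 0.00204). This call depended on which genes entered the fit: with genes down to 1 TPM included the difference was 1.19 (adjusted p 0.177), and with no filter it was 1.18 (adjusted p 0.195).

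Tmem176b was 5.76, 3.77 and 4.86 TPM in WT stimulated (80 to 88 reads) and 13.8, 11.6 and 10.5 TPM in cKO stimulated (160 to 205 reads). The lowest cKO library was well above the highest WT library. The means were 4.79 ± 0.996 and 11.96 ± 1.65 TPM (SD, n = 3 each), a 2.50-fold ratio. Tmem176b was higher in cKO by 1.43 (SE 0.11, limma adjusted p 6.92e-05), and its adjusted p lay between 3.52e-05 and 0.0296 over all 20 alternative fits. In this comparison 3.30% of the genes tested were called higher in cKO. Each member met the minimum of 5 TPM through the cKO groups alone, since both WT means of each gene were below it, so that the number of members called carries no weight of its own. By size of change they were numbers 69 and 76 of the 439 genes called higher, and the median log2 difference over all genes tested was −0.03.

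**Figure D2:**
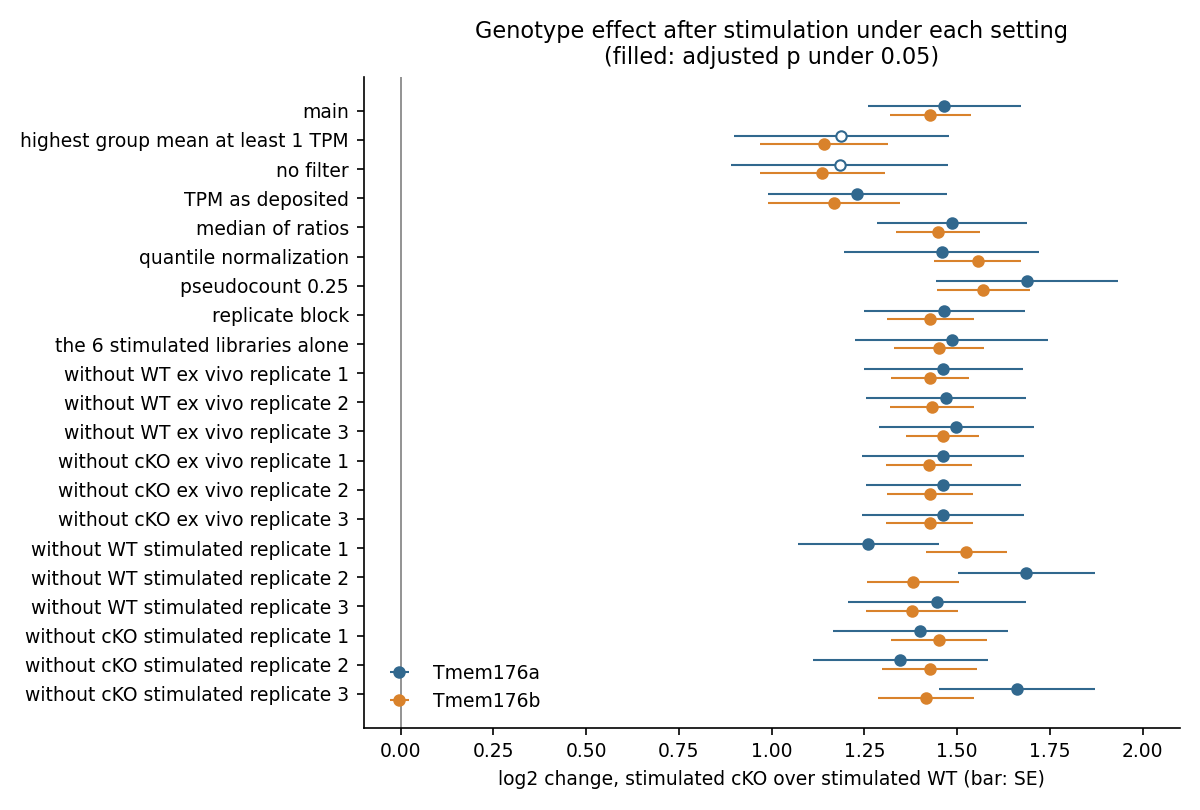
Log2 difference between cKO and WT after stimulation (x axis, bars are SE) for Tmem176a (blue) and Tmem176b (orange) under the reported fit (main) and 20 alternatives (y axis). Filled points passed an adjusted p of 0.05; Tmem176b is filled throughout, and Tmem176a is open only with genes down to 1 TPM included and with no filter, at 1.19 and 1.18.

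The order of the group levels was the same for both genes by mean, with WT ex vivo and WT stimulated lowest, then cKO stimulated, then cKO ex vivo. The WT groups overlapped. The mean in WT stimulated was 105% of that in WT ex vivo for Tmem176a and 111% for Tmem176b, with log2 differences of −0.11 (SE 0.21) and −0.04 (SE 0.11). In cKO Treg the stimulated mean was 40.9% of the ex vivo mean for Tmem176a and 52.6% for Tmem176b, and no stimulated library reached any ex vivo library. The log2 differences were −0.95 (SE 0.21) and −0.57 (SE 0.11). The genotype difference was therefore smaller after stimulation, by 0.84 (SE 0.29) for Tmem176a and by 0.53 (SE 0.16) for Tmem176b. The size for Tmem176b depended on the scaling, with an interaction of −0.18 (SE 0.17) under quantile normalization and −1.004 (SE 0.25) in TPM as deposited, and for Tmem176a these were −0.54 (SE 0.37) and −1.28 (SE 0.34). Without WT ex vivo replicate 3 the interactions were −0.85 and −0.59, and the stimulation differences in WT −0.05 and 0.07 (Tmem176a, then Tmem176b). These differences share the ex vivo libraries from which the genes were chosen, so they are given as values without a test. The share of Gm10800 was 42.9% to 55.9% in cKO stimulated against 20.4% to 24.4% in cKO ex vivo, and 32.6% to 44.4% in WT stimulated against 17.7% to 39.8% in WT ex vivo. Since the TPM of a library sum to a fixed total, the scaled log2 differences above are the ones that allow for it.

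How far the WT level lay above background was read from 1716 olfactory and vomeronasal receptor genes, which T cells are not known to use. Their median was 0.556 to 1.15 TPM and their 95th percentile 1.46 to 2.72 TPM, depending on the library. Tmem176b exceeded at least 99.7% of them in every WT library. Tmem176a exceeded 97.1% to 99.9% of them in WT ex vivo and 89.7% to 99.8% in WT stimulated, and WT stimulated replicate 1, with 16 reads, was the only library below the 95th percentile. In each of the 6 cKO libraries both genes exceeded at least 99.77% of the silent genes. The WT level of Tmem176a was thus near the top of the background range.

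TPM is given per transcript length, so the members can be set against each other within a library. The ratio of Tmem176b to Tmem176a was 1.40, 1.43 and 1.59 in WT ex vivo and 0.974, 1.26 and 0.998 in cKO ex vivo, 2 ranges that did not overlap, given without a test because these values chose the genes, and the WT values without replicate 3 were 1.40 and 1.43. After stimulation it was 2.79, 0.978 and 1.49 in WT and 1.25, 1.20 and 1.96 in cKO. The stimulated groups overlapped, with means of 1.75 ± 0.935 and 1.47 ± 0.423 (SD, n = 3 each), and the difference of −0.286 did not exceed the spread (exact two-sided permutation test, p 0.7, where 0.1 is the smallest p that 3 against 3 allow). With the median of the silent genes subtracted from both members the difference was −0.826 (p 0.7), from a ratio of 4.52 in WT stimulated replicate 1. The sign of the unsubtracted difference rested on WT stimulated replicate 1, without which it was 0.233.

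Other genes of the chromosomal region were examined to see whether they moved with the pair. Of 23 other annotated genes within 250 kb on either side, 12 reached 5 TPM in a group and were tested. The nearest of these, Gimap3, starts 74.9 kb from the midpoint of the pair. Between Gimap8 and Gimap3 lie 8 tested Gimap genes, which encode GTPases of lymphocytes, and their log2 genotype differences after stimulation ran from −0.24 to 0.31, with 0 called by limma after adjustment and 2 at an unadjusted p under 0.05, which 23.8% of all genes tested had. Only Repin1, a zinc finger gene at the edge of the window, was called after stimulation, with 4.40 TPM in WT, 5.57 TPM in cKO and a log2 difference of 0.53 (SE 0.14, limma adjusted p 0.0412), beside 3.30% of all genes called higher, and 5 of its 20 alternative fits called it. It too reached 5 TPM through the cKO groups alone, and its difference was 0.27 with genes down to 1 TPM (limma adjusted p 0.396) and 0.26 with no filter (0.410). Its call was lost without any of 9 of the 12 libraries (0.0524 to 0.128), all but WT ex vivo replicates 2 and 3 and cKO stimulated replicate 2. Zfp775 (0.45), Gm3345 (0.34) and 2410003K15Rik (−0.19) did not pass. Ex vivo, Gimap6 was lower in cKO by 0.63 (limma adjusted p 0.0340), beside 1.67% of all genes called lower, and the remaining genes did not pass, Repin1 among them. At an unadjusted p under 0.05 there were 4 of the 8 Gimap genes ex vivo, all lower in cKO, and 5 of the 12 neighbours, 4 of them lower, beside 17.9% of all genes tested. The call of Gimap6 held in 7 of 19 alternative fits (limma adjusted p up to 0.717) and was lost without WT ex vivo replicate 1 or 3, any of the cKO ex vivo replicates, or WT stimulated replicate 2 or 3 (0.0505 to 0.113). Over the 12 genes the median log2 difference after stimulation was 0.22, against −0.03 over all genes tested and 1.47 and 1.43 for the pair. After stimulation 4 of the 12 had an unadjusted p under 0.05 by limma, 0 of them lower in cKO, beside 23.8% of all genes tested.

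**Figure D3:**
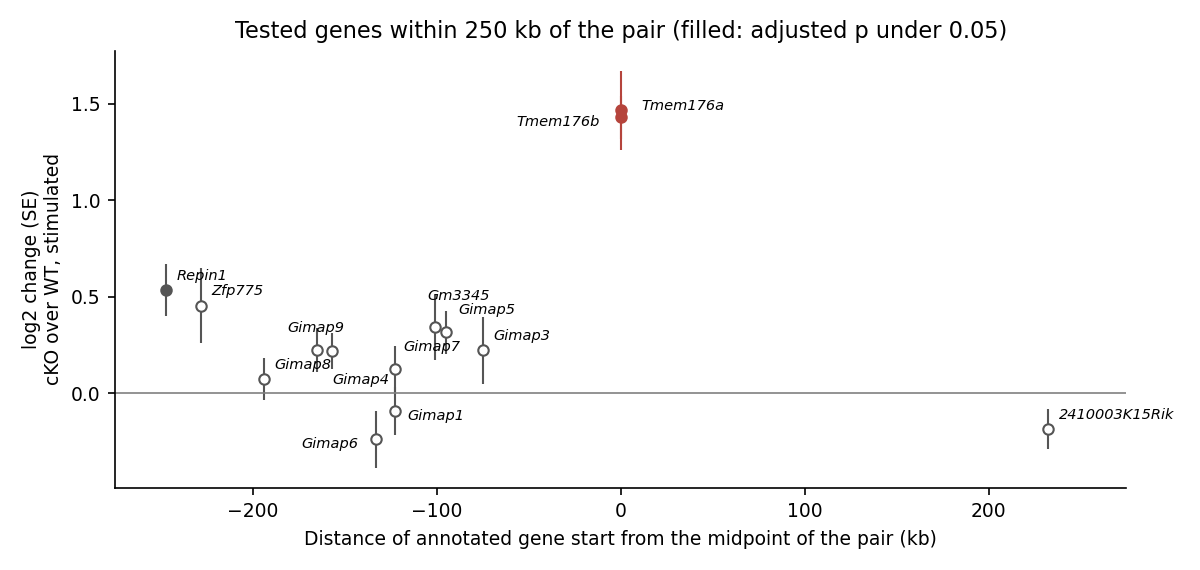
Log2 difference between cKO and WT after stimulation (y axis, bars are SE) of the pair and the 12 tested genes around it, by distance of their annotated starts from the midpoint of the pair in kb (x axis). Filled points passed an adjusted p of 0.05. The members stand at 1.47 and 1.43, and the highest of the neighbours, Repin1, at 0.53.

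The pair is related in sequence to the MS4A family of membrane proteins, of which 17 genes were measured and 4 reached 5 TPM. Ms4a6c was higher in cKO, at 7.65, 8.08 and 9.73 TPM in WT stimulated and 18.9, 16.4 and 11.6 TPM in cKO stimulated, a log2 difference of 1.06 (SE 0.10, limma adjusted p 0.000218). The other three were lower in cKO after stimulation. Ms4a4b, a membrane gene of T cells, was 64.2, 60.3 and 70.6 TPM in WT and 30.4, 27.1 and 19.3 TPM in cKO, a log2 difference of −1.05 (SE 0.10, limma adjusted p 0.000255). Ms4a4c differed by −0.84 (SE 0.18, limma adjusted p 0.0222) and Ms4a6b by −0.47 (SE 0.11, limma adjusted p 0.0231). For all 4 genes the stimulated groups of TPM did not overlap, as for 3.68% (cKO higher) and 27.1% (cKO lower) of all genes tested. The counts of 1 higher and 3 lower stand beside 3.30% and 3.63% of all genes tested, and the family median was −0.65. Ex vivo the same 4 genes were called in the same directions, Ms4a6c by 1.28 and Ms4a4b by −0.95, where 3.62% of genes were called higher and 1.67% lower. Ms4a4b and Ms4a6c kept their calls in both comparisons whichever library was left out. Ms4a4c lost its call after stimulation without WT replicate 1 or 2 or cKO replicate 1 (limma adjusted p 0.0635 to 0.0988), and ex vivo without WT or cKO replicate 3 (0.0545 and 0.0596). With genes down to 1 TPM in the fit, 0 of the 4 were called ex vivo (limma adjusted p 0.0502 to 0.666). Ms4a6b lost its call after stimulation without WT replicate 2 or 3 or cKO replicate 1 or 3 (0.0893 to 0.1002), and ex vivo without cKO replicate 1 (0.0508). Ms4a1, which encodes CD20, was 0.973 to 3.10 TPM, and it was above the 95th percentile of the silent genes in 2 of 12 libraries. After stimulation it was 1.31, 1.15 and 1.40 TPM in WT and 2.79, 1.86 and 3.10 TPM in cKO, groups that did not overlap (3.68% of the genes tested, with cKO higher). Ms4a1 was too low to be tested, so that share does not include it. The Ms4a4 and Ms4a6 genes are close copies of each other, and reads shared between copies make their values less certain.

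The type 17 list held 11 genes of the programme of T cells that make interleukin-17. Il17a, the lead cytokine of the programme, was above the 95th percentile of the silent genes in 1 of 12 libraries, and Il23r in 8. Of the 4 genes tested, 2 were higher in cKO after stimulation and 0 lower, beside 3.30% and 3.63% of all genes tested. These were Maf, a transcription factor that several T cell subsets use, by 0.69 (SE 0.13, limma adjusted p 0.0121), and Ahr, the aryl hydrocarbon receptor, by 0.60 (SE 0.12, limma adjusted p 0.0154). Their stimulated groups of TPM overlapped, and the calls were lost without WT stimulated replicate 3 (adjusted p 0.0538 for Maf and 0.0611 for Ahr) and, for Ahr, without WT replicate 2 (0.0777) or cKO replicate 1 (0.0529). Rora (−0.35) and Ccr6 (−0.04) did not pass. Ex vivo Maf (0.53, limma adjusted p 0.0439) and Ahr (0.85, 0.00337) were called higher in cKO, beside 3.62% of all genes, while Rora (0.49) and Ccr6 (0.52) did not pass. All 4 had an unadjusted p under 0.05, beside 17.9% of all genes. The ex vivo call of Maf held in 7 of 19 alternative fits (limma adjusted p up to 0.718). It was lost without WT or cKO ex vivo replicate 1 or 3, any of the WT stimulated replicates, or cKO stimulated replicate 1 (0.0607 to 0.161). That of Ahr held in 17 of 19 and was lost with genes down to 1 TPM (limma adjusted p 0.265) and with no filter (0.311). Maf and Ahr are also expressed by T cells outside the type 17 programme.

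Inflammasome genes, the system that TMEM176B has been linked to, did not pass in either genotype comparison. Of 13 genes 6 were tested, with a median log2 difference of 0.09 after stimulation and 0.18 ex vivo. By limma 0 were called after adjustment, and at an unadjusted p under 0.05 there was 1 after stimulation and 3 ex vivo, beside 23.8% and 17.9% of all genes tested. Casp1, the gene of caspase-1, was 7.03, 8.64 and 11.2 TPM in WT stimulated and 7.83, 9.33 and 5.61 TPM in cKO stimulated, overlapping groups with a log2 difference of 0.04 (SE 0.19, limma adjusted p 0.916). After stimulation the largest difference of the 6 was that of Nek7, an activator of NLRP3, at 0.39 (limma adjusted p 0.0768), and ex vivo that of Aim2, a sensor of DNA, at 0.42 (0.0956). Nlrp3 itself was 1.18 to 3.86 TPM and was not tested.

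Because myeloid cells are rich in both members, markers of dendritic and myeloid cells were followed beside the pair. The summed level of the 19 markers was 90.2 to 101 TPM in WT ex vivo and 150 to 188 TPM in cKO ex vivo, and after stimulation 91.3 to 131 TPM in WT and 111 to 158 TPM in cKO. Most of the ex vivo gap was Cd74, the invariant chain of MHC class II, at 33.1 to 43.7 TPM in WT and 90.6 to 109 TPM in cKO. Without Cd74 the sums were 55.1 to 58.5 TPM (WT) and 59.6 to 90.0 TPM (cKO) ex vivo, and 67.4 to 89.7 TPM (WT) and 71.1 to 98.4 TPM (cKO) after stimulation. Of the 3 markers tested, Cd74 was higher in cKO after stimulation, by 0.87 (SE 0.15, limma adjusted p 0.00620), beside 3.30% of all genes called higher. Its groups of TPM overlapped, and the other markers tested, Cst3 (0.07) and Fcer1g (0.15), did not pass. Ex vivo Cd74 was again the 1 gene called, higher in cKO by 1.07 (SE 0.15, limma adjusted p 0.00291), beside 3.62% of all genes called higher. Its groups did not overlap, as for 21.4% of the genes tested with cKO higher. This call held in 17 of 19 alternative fits and was lost with genes down to 1 TPM (0.217) and with no filter (0.261). No marker was at 0 in all libraries of a group. Lyz2 (0.881 to 2.46 TPM) was above the 95th percentile of the silent genes in 1 of 12 libraries and Xcr1 (0.719 to 2.20 TPM) in 0, whereas H2-Aa (1.99 to 5.54 TPM) was above it in all 12. In all 3 libraries of a group, 7 (WT) and 13 (cKO) of the 19 markers were above it ex vivo, and 11 (WT) and 16 (cKO) after stimulation. The MHC class II genes H2-Aa, H2-Ab1 and H2-Eb1 averaged 2.21, 2.01 and 1.72 TPM in WT ex vivo and 4.18, 3.41 and 3.802 TPM in cKO ex vivo, with groups that did not overlap, as for 21.4% of the genes tested. They did not reach 5 TPM, so they were not tested and the shares of genes tested do not include them. After stimulation they averaged 3.36, 3.44 and 3.03 TPM in WT and 4.92, 3.61 and 4.24 TPM in cKO, with groups that did not overlap for H2-Aa alone, as for 3.68% of the genes tested. Itgax, which encodes CD11c, was above the percentile in all 12 libraries and averaged 2.81 (WT) and 2.76 TPM (cKO) ex vivo, and 4.02 (WT) and 4.40 TPM (cKO) after stimulation.

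Of the 7 B cell markers, Cd79b, a chain of the B cell receptor complex, was the 1 gene tested. It was higher in cKO after stimulation by 0.96 (SE 0.23, limma adjusted p 0.0283) with overlapping groups of TPM, and the call was lost without WT stimulated replicate 1 or 2 or cKO stimulated replicate 1 or 3 (0.0803 to 0.111). Ex vivo Cd79b was 4.72 to 7.65 TPM in WT and 11.6 to 12.1 TPM in cKO. These groups did not overlap, as for 21.4% of the genes tested with cKO higher. Its log2 difference of 0.70 (SE 0.23) did not pass (limma adjusted p 0.112), with an unadjusted p under 0.05, beside 17.9% of all genes. The B cell markers summed to 13.9 to 17.4 TPM (WT) and 20.7 to 29.7 TPM (cKO) ex vivo, and to 16.2 to 21.7 TPM (WT) and 19.7 to 26.0 TPM (cKO) after stimulation. Without Cd79b the sums overlapped, at 8.45 to 12.7 TPM (WT) and 9.165 to 17.6 TPM (cKO) ex vivo. After stimulation they were 13.4 to 17.7 TPM (WT) and 13.9 to 19.2 TPM (cKO) without it. The part of myeloid cells or B cells in the level of the pair was not tested. Of the 6 Treg markers, 2 were called higher in cKO after stimulation, Foxp3 by 0.96 (SE 0.18, limma adjusted p 0.00847) and Il2ra by 0.80 (SE 0.15, limma adjusted p 0.00972), with overlapping groups of TPM for both, and 0 were called ex vivo by limma (2 at an unadjusted p under 0.05, beside 17.9% of all genes). Of all genes tested, 3.30% were called higher after stimulation and 3.62% ex vivo. Of the 10 genes of all lists called after stimulation, 0 were called when genes down to 1 TPM entered the fit, with limma adjusted p between 0.0522 and 0.550, and 5 of them had an unadjusted p under 0.05. In that fit 0 of the 10 were called ex vivo either, and 8 had an unadjusted p under 0.05. Of all 33873 genes in that fit, 4501 had such a p after stimulation and 2340 ex vivo. The 10 genes were picked by their calls in these same stimulated libraries, so the count of 5 carries no weight of its own.

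**Figure D4:**
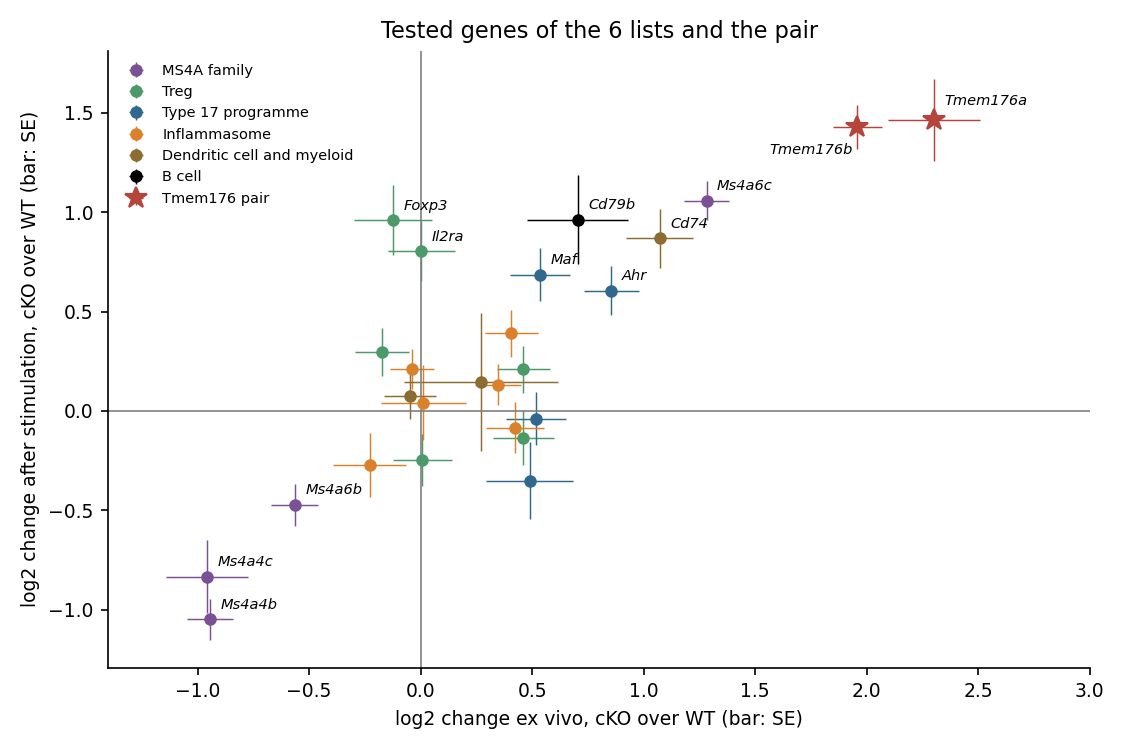
Log2 differences between cKO and WT ex vivo (x axis) and after stimulation (y axis), with SE bars, for the tested genes of the 6 lists and for the pair (stars). Names mark the pair and the genes called after stimulation. The members lie farthest to the upper right, at 2.30 and 1.47 (Tmem176a) and 1.96 and 1.43 (Tmem176b), and Ms4a4b lies at −0.95 and −1.05. The pair was chosen for its rise ex vivo, so its place on the x axis follows from that choice.

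Over the 12 libraries Tmem176a and Tmem176b had a Pearson r of 0.95 on the log2 scale. Of the other genes tested, 10 were closer to Tmem176a than Tmem176b was, and 14 were closer to Tmem176b than Tmem176a was. The libraries fall into 4 groups, so r describes how alike the pattern over groups is, and no p is given. The 5 genes with the highest r to the mean of the pair were Axl, Ifitm2, Ms4a6c, Chsy1 and 2900026A02Rik, with r of 0.99, 0.99, 0.99, 0.99 and 0.98. Axl, a receptor tyrosine kinase, averaged 10.4 (WT) and 67 TPM (cKO) ex vivo, and 11.3 (WT) and 29.2 TPM (cKO) after stimulation. Ifitm2, an interferon-induced membrane protein gene with close copies nearby, averaged 8.39 (WT) and 105 TPM (cKO) ex vivo, and 9.42 (WT) and 51.7 TPM (cKO) after stimulation. Chsy1, which encodes a chondroitin synthase, moved less, from 9.13 (WT) to 17.4 TPM (cKO) ex vivo. Its stimulated groups of TPM overlapped at 10.6 (WT) and 12.4 TPM (cKO), and its scaled log2 difference there was 0.45 (SE 0.07), given without a test. All 5 had their highest mean in cKO ex vivo, as the pair did, which is what the choice by r selects for.

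**Figure D5:**
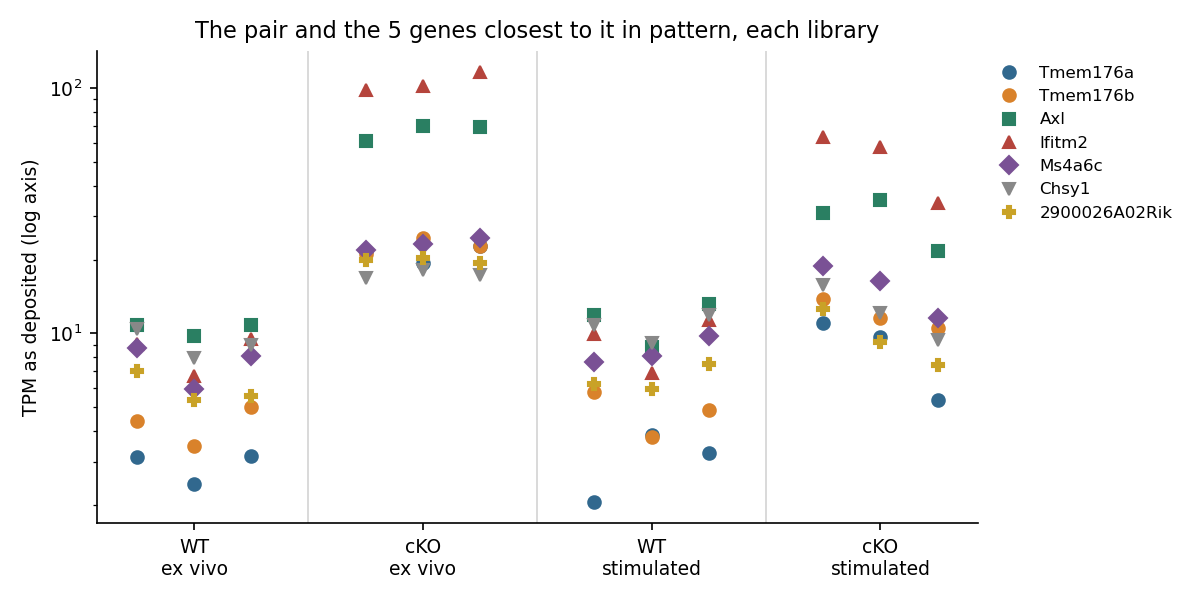
TPM on a log axis (y axis) of Tmem176a, Tmem176b and the 5 genes of most similar pattern in each of the 12 libraries, by group (x axis). Each symbol is 1 gene in 1 library. Every gene is highest by mean in cKO ex vivo, from 17.4 TPM (Chsy1) to 105 TPM (Ifitm2).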

How the data were processed

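Strand-specific total RNA libraries, depleted of ribosomal RNA, were sequenced as paired 51 bp reads. The authors aligned reads to mm9 with STAR 2.6.0c and counted exons of Ensembl release 67 by strand with HTSeq 0.6.1. They deposited TPM, handled here as a signal per gene summing to 1000000 per library, and log2 values. The deposited log2 values are of TPM plus the worth of 1 read, which gave whole reads (within 0.01) for 99.998% of values; these serve as depth only. A deposited table of the authors' pairwise fold changes and p-values was not used.

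Groups came from the labels. TPM were scaled by a trimmed mean of M-values (30% and 5% trimmed), and log2(scaled TPM + 1) was fitted with limma 3.58.1 (R 4.3.3; empirical Bayes with trend) over all 12 libraries by group, for the 13318 genes whose highest group mean reached 5 TPM. Tests were two-sided with a Benjamini-Hochberg adjusted p under 0.05 as the call. TPM are no counts, so no count model was run. The fit was tested on simulated data.

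The members and lists were chosen with earlier results of these data known. Named genes were the members, Ikzf1, genes reaching 5 TPM within 250 kb of the pair, the 5 genes of highest r, up to 4 called genes per list, and the defining genes Nlrp3, Casp1, Itgax, Cd74, Ms4a1 and Ms4a4b; other genes named were picked after their values were seen. One gene of the rule is not reported here. The members were tested only between the stimulated groups. The ratio was tested by exact permutation. Annotation was GENCODE on NCBIM37, with 99.0% of genes placed; upstream stretches were from RefSeq. Alternatives covered filter, scaling, pseudocount, replicate block and each library left out. Precision is limited by 3 libraries per group and, in WT, by low read numbers.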

Additional observations from a re-analysis of the deposited data

How the results depend on the processing

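After stimulation Tmem176b kept its direction and call in all 20 alternatives and Tmem176a in 18, the exceptions being genes down to 1 TPM (1.19, adjusted p 0.177) and no filter (1.18, adjusted p 0.195). Those 18 all kept the minimum of 5 TPM, which Tmem176a met through the cKO groups alone. The fits with 1 library left out share most of their libraries, so they are not independent of each other. Leaving out each of the 12 libraries in turn gave 1.26 to 1.69 (limma adjusted p 0.00154 to 0.0123) for Tmem176a and 1.38 to 1.53 (0.0000966 to 0.000698) for Tmem176b. With the replicate block the values were 1.47 (limma adjusted p 0.00709) and 1.43 (0.000582); same-numbered libraries correlated between −0.208 and 0.257, so the numbers were not taken to pair them, and the block changed no call of the members. The genotype difference of Tmem176a ex vivo was 2.00 under quantile normalization, and that of Tmem176b was 2.17 in TPM as deposited, 1.73 under quantile normalization and 2.12 with a pseudocount of 0.25. The stimulation difference in WT was −0.42 (quantile) for Tmem176a, and for Tmem176b −0.25 (1 TPM), −0.25 (no filter), 0.12 (as deposited) and −0.24 (quantile). The stimulation difference in cKO was −1.46 (1 TPM), −1.45 (no filter) and −1.25 (as deposited) for Tmem176a, and −1.10 (1 TPM), −1.09 (no filter), −0.88 (as deposited) and −0.41 (quantile) for Tmem176b. The interaction was −1.16, −1.15, −1.28 and −0.54 (1 TPM, no filter, as deposited, quantile) for Tmem176a, and −0.85, −0.83, −1.004 and −0.18 for Tmem176b. Leaving out single libraries gave 2.25 to 2.40 and 1.89 to 2.05 ex vivo, −0.34 to 0.10 and −0.13 to 0.07 for stimulation in WT, −1.08 to −0.75 and −0.59 to −0.52 for stimulation in cKO, and −1.04 to −0.62 and −0.59 to −0.43 for the interaction (Tmem176a, then Tmem176b).

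The number of genes called after stimulation was 923, and 52 (1 TPM), 52 (no filter), 306 (as deposited), 1579 (quantile), 553 (the 6 stimulated libraries alone) and 398 to 1057 (single libraries left out, lowest without WT stimulated replicate 2). Ex vivo it was 704, and 57 (1 TPM), 44 (no filter), 273 (as deposited) and 324 to 740 (lowest without cKO ex vivo replicate 3; 371 without WT ex vivo replicate 3). In TPM as deposited the median log2 difference over all genes was −0.30 after stimulation and 0.21 ex vivo, and the calls were 69 higher and 237 lower after stimulation (439 and 484 in the reported fit) and 260 higher and 13 lower ex vivo (482 and 222). The ratio difference after stimulation of −0.286 became 0.233 (exact permutation p 0.8) without WT stimulated replicate 1, and ran from −0.674 to 0.233 over the libraries left out; it was −0.826 with the median of the silent genes subtracted. The cause of these shifts was not tested. Depth limits Tmem176a most, at 16 to 47 reads in WT libraries.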

Other observations

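Head-to-head genes were counted across the annotation, a description chosen after the data were seen. Of 1367 divergent pairs with less than 1 kb between their annotated starts, 523 had both genes tested. Tmem176b and Tmem176a were the 1 pair with both genes called higher in cKO after stimulation (0.191% of the pairs tested), 0 pairs had both lower, 0 had 1 higher and 1 lower, and 45 had only 1 gene called. At an unadjusted p under 0.05 for both genes by limma, 6 pairs had both higher, 11 both lower and 3 opposite directions, and 23.8% of all genes tested had such a p. This count rests on the minimum of 5 TPM, which both genes met through the cKO groups alone. With genes down to 1 TPM 1337 pairs had both genes tested and 0 had both called higher, since Tmem176a was not called (limma adjusted p 0.177, and 0.195 with no filter). No test is attached, since the pair was chosen for the rise of both genes ex vivo.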
